A study of Mus musculus with 8 samples.

Results

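The genes described here encode enzymes of phospholipid synthesis and of acyl chain remodelling. They were a list of 34 named genes, and all 34 were found among the 55471 gene rows of the count files and passed the filter that left 15084 genes for testing. RNA was sequenced from hearts of 4 wild-type (WT) and 4 TAZG197V mice, aged 14 weeks per the study. TAZG197V mice carry a CRISPR/Cas9 knock-in of a patient-derived glycine to valine substitution in Tafazzin (gene Taz, on the X chromosome), transmitted through the germline. Founders were C57BL/6N and were crossed to C57BL6/J. The labels and the study's methods speak of homozygous offspring, whereas the study's results describe hemizygous males bred from heterozygous females, and the labels do not give the sex of these 8 mice. No treatment was given to either genotype, and a small piece of each heart was taken for total RNA.

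Phospholipids are built by adding acyl chains to glycerol-3-phosphate, which yields phosphatidic acid. Phosphatidic acid is either dephosphorylated to diacylglycerol, from which phosphatidylcholine and phosphatidylethanolamine are made with CDP-choline and CDP-ethanolamine, or activated to CDP-diacylglycerol, from which phosphatidylinositol and cardiolipin are made. Phospholipases such as phospholipase A2 remove single acyl chains and lysophospholipid acyltransferases replace them, so that chain composition is set after synthesis. Tafazzin transfers acyl chains between phospholipids and cardiolipin, the signature lipid of the inner mitochondrial membrane in heart.

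In TAZG197V hearts 7 members were higher (Agpat1, Agpat5, Cds2, Cdipt, Chka, Ptdss2 and Pemt) and 8 were lower (Agpat3, Lpin1, Lpin2, Etnk1, Chpt1, Lpcat3, Mboat1 and Mboat2). The remaining 19 were not called. A call needed an adjusted p under 0.05 in the edgeR quasi-likelihood test over all genes, a fold change beyond the study's minimum either way and a mean count of at least 50. Of all genes tested, 33.5% were called, 18.5% higher and 15.1% lower, against 44.1% of the members, 20.6% higher and 23.5% lower. Among genes whose mean count was 50 or more, as it was for 33 of the 34 members, 41.0% were called, so that the share of called members was near that of genes expressed at this level. The median log2 fold change of the members was -0.047, against -0.013 over all genes tested. The median size of the change was 0.22, against 0.27 over all genes tested and 0.24 over genes whose mean count was 50 or more. Only Pemt, Lpin1 and Mboat1 among the called members differed by more than 1.5-fold. With library totals in place of TMM scaling, 3510 genes were higher and 1694 lower, against 2785 and 2275, and the median of all genes moved from -0.013 to 0.056. Under that scaling 7 members were higher and 6 lower.

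For 12 of the 34 members (35.3%) all 4 TAZG197V libraries lay above or below all 4 WT libraries, against 33.2% of all genes. Among genes with a mean count of at least 50 the share was 36.7%. These 12 were the called members other than Lpin2, Etnk1 and Mboat2. The calls of Lpin1, Cds2, Cdipt, Chka, Chpt1, Ptdss2 and Pemt passed the adjusted p threshold in all 17 other fits (other tools, covariates and scalings, and fits with libraries left out). Each of the other 8 called members missed it in at least 1. Lane 7 held the number 1 and 2 libraries and lane 8 the number 3 and 4 libraries of both genotypes. For the 12 members without overlap the direction within each lane follows from that. The differences of mean log2 CPM in lanes 7 and 8 were -0.24 and -0.45 for Lpin2, -0.26 and -0.19 for Etnk1, and -0.63 and -0.27 for Mboat2.

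**Figure D1:**
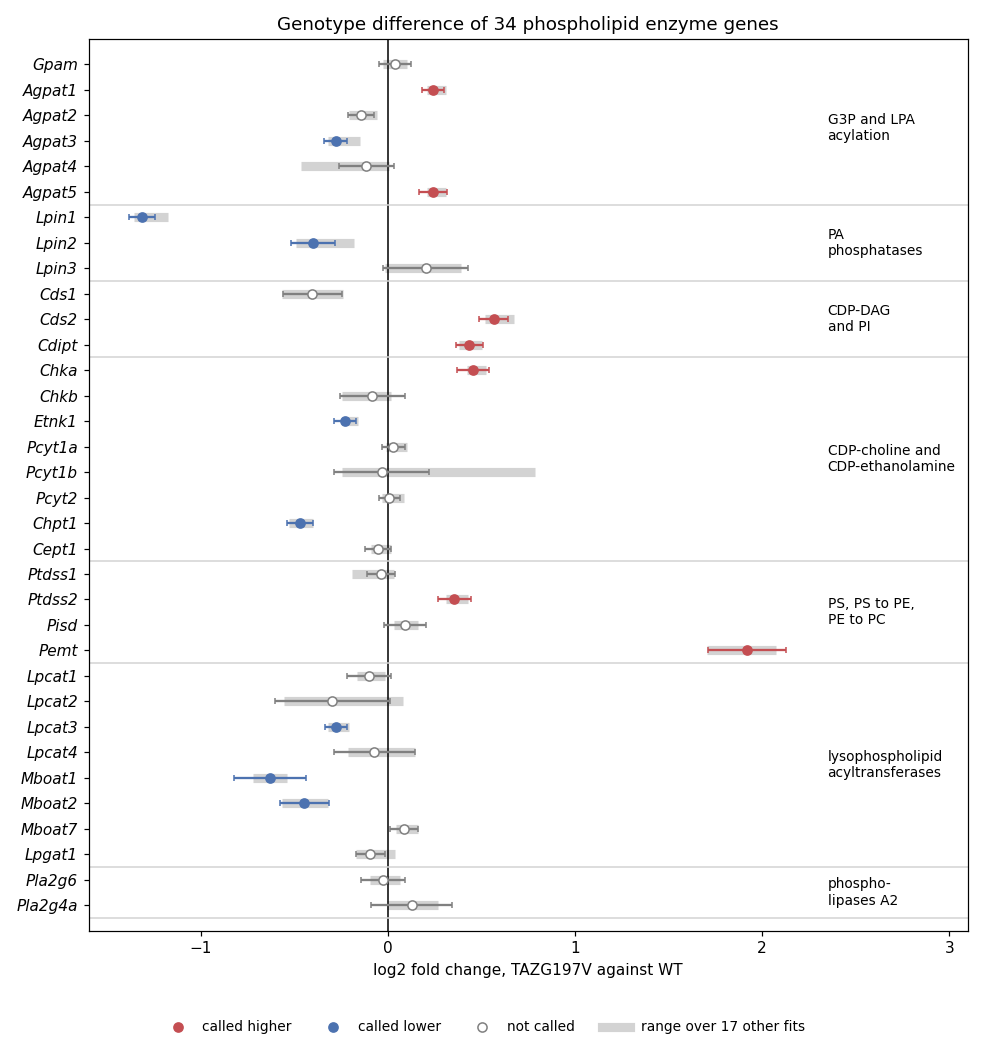
Fitted log2 fold change of each of the 34 genes in TAZG197V against WT hearts, grouped by role, with error bars of 1 SE. Filled points mark the 7 genes called higher and the 8 called lower, open points the 19 not called, and grey bars the range over 17 other fits. Pemt at 1.92 and Lpin1 at -1.32 lie apart from the other members.

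Total counts were 23055689 to 36301031 per library. Taz itself fell, from 60.9 ± 2.36 to 47.3 ± 2.60 CPM (counts relative to library size, scaled by TMM, SD, n = 4 each), with a log2 fold change of -0.37 (SE 0.055, adjusted p = 0.00124, edgeR). This checks expression of the edited gene and not the substitution, which gene counts cannot show. The markers of cardiomyocytes were abundant in every library, with summed levels of 54370 to 60980 CPM in WT and 45490 to 49680 CPM in TAZG197V, and 3 of 6 were called lower. Both number 4 libraries stood apart: summed brain markers were 187 and 330.3 CPM there and 40.95 to 80.9 CPM in the other 6, and summed red cell markers were 55070 CPM in WT 4 and 227 to 1065 CPM in the rest. Atrial markers were 4.24 to 1093 CPM in WT and 28.7 to 130.0 CPM in TAZG197V, with 2 of the 3 tested genes called lower, and adipocyte markers were 0.621 to 43.97 and 0.400 to 6.64 CPM, with both tested genes called lower. WT 2 alone held the highest atrial and adipocyte sums. The other WT libraries had 4.24 to 118 and 0.621 to 6.53 CPM, which overlapped with TAZG197V. The atrial sums of TAZG197V were mostly Nppa, at 23.3 to 126.6 CPM, which the study names among genes linked to cardiac failure. In TAZG197V Myl4 was at most 3.81 CPM, and Myl7, Sln and Mybphl were at most 1.28 CPM. Nppa was 1.47 CPM in WT 4. Without WT 2, 14 of the 15 member calls remained, all but Lpin2. Without WT 4, 11 remained, with Agpat3, Agpat5, Lpin2 and Etnk1 lost (Etnk1 by its fold change alone), without TAZG197V 4, 12 remained, and without both number 4 libraries 13 remained. Fibroblast markers were 879 to 1463 CPM in WT and 605 to 836 CPM in TAZG197V, with 3 of 5 called lower and the highest sum again in WT 2, and endothelial markers were 614 to 877 and 495 to 636 CPM, with 2 of 4 called lower. Macrophage markers were 224 to 312 and 211 to 334 CPM, neutrophil markers 0.338 to 50.4 and 0.257 to 2.90 CPM, and liver markers 0.5496 to 1.295 and 0.936 to 2.60 CPM, with 0 of the 8 tested genes of these lists called by edgeR and 2 at an unadjusted p under 0.05 (C1qa and Ttr). All 6 red cell genes were called lower, and of the 4 tested brain genes 1 was called higher and 1 lower. No listed marker was at 0 in all libraries. In bulk tissue, fewer cells of a type and less RNA per cell cannot be told apart, and the part of these cell types in the differences below was not tested. Nothing in the labels says more of how the 4 mice of a genotype were related, so the p-values measure the spread between these 8 libraries.

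Scaled by exon length, the members spanned a wide range of levels. Gpam, at 53.3 ± 2.96 CPM per kilobase, and Chpt1, at 52.3 ± 1.82, led in WT and did not differ beyond their spread (SD, n = 4). Agpat3 followed at 31.5 ± 4.65, Lpin1 at 26.3 ± 4.18 and Cds2 at 25.9 ± 2.13 CPM per kilobase, and these 3 lay within each other's spread. Pcyt1b, Pemt and Lpcat2 had the lowest means in WT, at 0.265 ± 0.385, 0.490 ± 0.119 and 0.544 ± 0.194 CPM per kilobase, and lay within each other's spread. In TAZG197V hearts Gpam stayed first at 55.0 ± 5.51, Cds2 came next at 38.6 ± 2.16 and then Chpt1 at 37.8 ± 4.04 CPM per kilobase, the last pair within their spread. Lpin1 moved from place 4 to place 11, at 10.8 ± 0.460 CPM per kilobase, and Pemt was at 1.73 ± 0.366 CPM per kilobase.

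**Figure D2:**
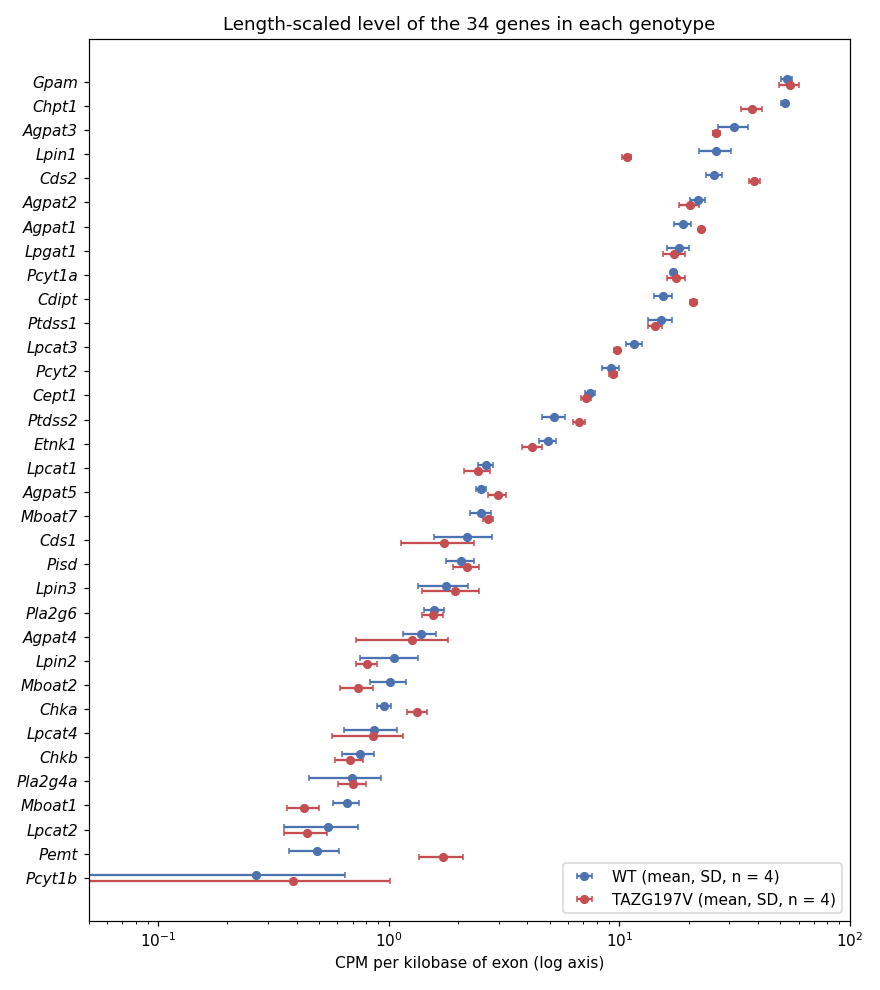
Mean level of each of the 34 genes in WT and TAZG197V hearts in CPM per kilobase of exon, on a log axis, with error bars of 1 SD over 4 libraries (the lower bars of Pcyt1b run past the axis). Gpam was highest in both genotypes, Lpin1 and Chpt1 lie to the left of their WT level in TAZG197V, and Cds2, Cdipt and Pemt to the right.

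Promoter sequences are shown for the members with the largest fall (Lpin1) and the largest rise (Pemt), and for Agpat1 and Agpat3, which were called in opposite directions within a family. Each runs 5′ to 3′ on the gene's strand from 250 bases before to 50 bases after a RefSeq start (GRCm38.p6). RefSeq entries matched 30 of the 34 members, with 45 promoters in all. Pemt has 2 listed starts, which gene counts do not separate, and 1 of the 2 starts of Agpat1 is shown. Capitals would mark a match to the C/EBP-ATF response element core (TGATGNAA) or to a sterol regulatory element (TCACNCCAC) on either strand, and none of these 5 sequences holds one.
Lpin1 (chr12:16610917-16611216, minus strand): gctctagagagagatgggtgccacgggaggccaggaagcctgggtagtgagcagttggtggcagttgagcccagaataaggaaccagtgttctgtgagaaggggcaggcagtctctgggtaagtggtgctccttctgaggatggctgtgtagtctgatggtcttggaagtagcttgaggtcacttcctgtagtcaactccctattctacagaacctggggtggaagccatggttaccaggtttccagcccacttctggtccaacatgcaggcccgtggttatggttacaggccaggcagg
Pemt, downstream start (chr11:60036956-60037255, minus strand): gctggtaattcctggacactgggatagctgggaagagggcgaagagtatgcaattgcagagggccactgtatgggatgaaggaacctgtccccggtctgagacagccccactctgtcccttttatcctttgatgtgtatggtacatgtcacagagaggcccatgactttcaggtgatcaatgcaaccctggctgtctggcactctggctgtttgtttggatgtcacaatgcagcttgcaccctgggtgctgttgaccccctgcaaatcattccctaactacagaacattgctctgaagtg
Pemt, upstream start (chr11:60040139-60040438, minus strand): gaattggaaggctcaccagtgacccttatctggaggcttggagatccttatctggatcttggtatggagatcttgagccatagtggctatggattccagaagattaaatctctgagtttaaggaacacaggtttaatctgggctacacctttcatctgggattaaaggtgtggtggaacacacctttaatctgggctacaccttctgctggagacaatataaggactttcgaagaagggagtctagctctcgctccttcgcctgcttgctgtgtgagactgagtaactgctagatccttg
Agpat1 (chr17:34605611-34605910, plus strand): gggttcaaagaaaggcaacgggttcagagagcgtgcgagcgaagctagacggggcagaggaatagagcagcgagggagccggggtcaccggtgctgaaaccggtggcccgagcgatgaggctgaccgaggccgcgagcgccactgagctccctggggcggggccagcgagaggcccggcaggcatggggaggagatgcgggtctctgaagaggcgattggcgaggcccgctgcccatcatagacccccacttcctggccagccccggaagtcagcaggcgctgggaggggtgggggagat
Agpat3 (chr10:78351651-78351950, minus strand): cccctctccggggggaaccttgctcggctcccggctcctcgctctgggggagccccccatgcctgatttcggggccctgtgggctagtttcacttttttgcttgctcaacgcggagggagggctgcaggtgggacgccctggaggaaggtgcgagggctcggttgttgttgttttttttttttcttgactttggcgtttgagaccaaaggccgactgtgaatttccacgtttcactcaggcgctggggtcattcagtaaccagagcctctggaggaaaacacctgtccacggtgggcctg
The C/EBP-ATF core was found in 3.97% of 32851 promoters of all genes and in 2 of the 45 member promoters, of Lpin2 and Gpam. The sterol element was found in 1.24% of all promoters and in 2 of the 45, which are overlapping windows of Pcyt1a that share a single match. The sequence of the first of these windows is shown with the match in capitals.
Pcyt1a (chr16:32430671-32430970, plus strand): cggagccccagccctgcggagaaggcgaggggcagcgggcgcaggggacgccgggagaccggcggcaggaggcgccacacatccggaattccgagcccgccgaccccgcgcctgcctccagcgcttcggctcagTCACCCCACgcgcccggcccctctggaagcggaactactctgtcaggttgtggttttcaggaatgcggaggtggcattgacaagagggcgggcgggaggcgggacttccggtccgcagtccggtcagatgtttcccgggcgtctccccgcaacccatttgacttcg
The match starts 116 bases before the RefSeq start. A match is a description of the letters only.

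The first steps add acyl chains to glycerol-3-phosphate, and of these 6 members 2 were called higher, 1 lower and 3 were not called. The share called was 50.0%, against 33.5% of all genes tested and 41.0% of genes with a mean count of at least 50. Gpam, the mitochondrial acyltransferase that starts the pathway, had 343, 344, 349 and 384 CPM in WT 1 to WT 4 and 412, 373, 323 and 358 CPM in TAZG197V 1 to TAZG197V 4. The genotypes overlapped and the log2 fold change was 0.036 (SE 0.086, adjusted p = 0.767, edgeR). The Agpat enzymes acylate lysophosphatidic acid to phosphatidic acid. Agpat1 (chr17:34604262-34613449), an enzyme of the endoplasmic reticulum, had 55.9, 51.3, 62.6 and 56.5 CPM in WT and 69.0, 68.0, 66.6 and 67.3 CPM in TAZG197V. All TAZG197V libraries were above all WT libraries, and Agpat1 rose by 0.24 on the log2 scale (SE 0.059, adjusted p = 0.0132, edgeR), with an adjusted p of 0.0517 without WT 1. Agpat5, found at mitochondria, was 25.9 to 28.7 CPM in WT and 29.5 to 35.1 CPM in TAZG197V. It was called higher with a log2 fold change of 0.24 (SE 0.074, adjusted p = 0.0331, edgeR). That call was lost without WT 1 (adjusted p = 0.107), WT 4 (0.0519), TAZG197V 1 (0.0995) or TAZG197V 2 (0.106). It was also lost with DESeq2 (0.0692) and with a replicate block in edgeR (0.0537). An antisense gene covers 18.95% of its exon bases, and strand was not stated for the counting.

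Agpat3 moved the other way. It had 231, 214, 237 and 297 CPM in WT and 207, 195, 210.2 and 210.6 CPM in TAZG197V. WT 4 was the highest library and the genotypes did not overlap. Its log2 fold change was -0.28 (SE 0.064, adjusted p = 0.00942, edgeR), and -0.15 (adjusted p = 0.0971) without WT 4 and -0.17 (0.0658) without TAZG197V 4. With other covariates it was -0.25 (0.082) without surrogate variables, -0.25 (0.0629) with lane and -0.24 (0.0611) with a replicate block. Agpat2, known for its role in adipose tissue, had 42.4 to 50.6 CPM in WT and 38.7 to 48.4 CPM in TAZG197V and was not called (log2 fold change -0.14, adjusted p = 0.133, edgeR). Agpat4 had 3.22 to 4.56 CPM in WT and 2.48 to 5.61 CPM in TAZG197V, with the highest level in TAZG197V 4, a library with high brain markers. It was not called (log2 fold change -0.12, adjusted p = 0.559, edgeR), and was -0.45 without both number 4 libraries (adjusted p = 0.0458). As shares of the summed family level per kilobase, Agpat1 took 24.8% ± 1.53 in WT and 30.8% ± 0.293 in TAZG197V, and Agpat3 41.2% ± 3.35 and 35.99% ± 1.90 (SD, n = 4), so that Agpat3 remained the largest part in each genotype.

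The largest fall among the members was that of Lpin1 (chr12:16535669-16610966), which encodes lipin 1, a phosphatidic acid phosphatase that makes diacylglycerol and also acts as a transcriptional coactivator. Its levels were 249, 219, 238 and 312 CPM in WT 1 to WT 4 and 110.1, 102, 100.0 and 105 CPM in TAZG197V 1 to TAZG197V 4. Every WT library was above every TAZG197V library. The fitted fold change was 0.402, a log2 fold change of -1.32 (SE 0.071, adjusted p = 9.43e-06, edgeR), and ranged from -1.36 to -1.17 over the 17 other fits. Within lanes the difference of mean log2 CPM was -1.14 in lane 7 and -1.41 in lane 8.

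Lpin2, which encodes a second lipin, was 10.6 to 18.2 CPM in WT and 8.65 to 11.1 CPM in TAZG197V. Its genotypes overlapped and WT 4 was the highest library. The log2 fold change was -0.40 (SE 0.12, adjusted p = 0.0260, edgeR), and only 5 of the 17 other fits kept the adjusted p under 0.05. It was -0.18 (adjusted p = 0.173) without WT 4, -0.25 (0.053) without TAZG197V 4, -0.36 (0.0954) without TAZG197V 1, -0.43 (0.0701) without TAZG197V 2, -0.41 (0.0564) without WT 2, -0.41 (0.0513) without WT 3 and -0.36 (0.0893) with lane as covariate. Lpin3 had 4.33 to 8.05 CPM in WT and 4.65 to 9.28 CPM in TAZG197V and was not called (log2 fold change 0.20, SE 0.23, adjusted p = 0.510, edgeR). Lpin1 made up 90.2% ± 1.55 of the summed lipin level per kilobase in WT and 79.8% ± 2.86 in TAZG197V. The share of Lpin3 was 6.27% ± 2.01 and 14.2% ± 3.39, and that of Lpin2 3.56% ± 0.521 and 5.999% ± 0.860 (SD, n = 4). For all 3 the shares of the 2 genotypes did not overlap. The shares add up to the whole, so a fall of Lpin1 raises those of Lpin2 and Lpin3 by itself. Lpin2 was called lower in its own level and Lpin3 was not called. These shares depend on the assumed lengths: per kilobase of the longest transcript, Lpin3 took 3.92% and 9.12%.

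Cds2 and Cdipt, which act in turn in the branch from phosphatidic acid to phosphatidylinositol, were both higher in TAZG197V hearts. Of the 3 members of this group 2 were called (66.7%), against 33.5% of all genes tested. Cds2 (chr2:132263148-132312050) encodes a CDP-diacylglycerol synthase of the endoplasmic reticulum. It had 226, 234, 220.3 and 264 CPM in WT and 366, 353, 366 and 324 CPM in TAZG197V, with every TAZG197V library above every WT library. The fold change was 1.48, a log2 fold change of 0.57 (SE 0.078, adjusted p = 0.000892, edgeR), and 0.52 to 0.67 over the other fits. Cdipt (chr7:126975914-126980501), which encodes phosphatidylinositol synthase, had 36.5, 40.6, 44.97 and 38.6 CPM in WT and 54.1, 57.0, 53.99 and 52.5 CPM in TAZG197V. The genotypes did not overlap and the log2 fold change was 0.44 (SE 0.073, adjusted p = 0.00230, edgeR). Cds1, the other CDP-diacylglycerol synthase, had 8.66, 5.91, 8.04 and 11.8 CPM in WT and 5.09, 4.83, 7.45 and 9.98 CPM in TAZG197V. Its highest library in each genotype was number 4, and it was not called (log2 fold change -0.40, SE 0.16, adjusted p = 0.0760, edgeR), although it passed without TAZG197V 3 (-0.57, adjusted p = 0.0107). Without WT 4 its log2 fold change was -0.24 and it was not called. Cds2 supplied 92.3% ± 1.61 of the summed Cds level per kilobase in WT and 95.7% ± 1.68 in TAZG197V.

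**Figure D3:**
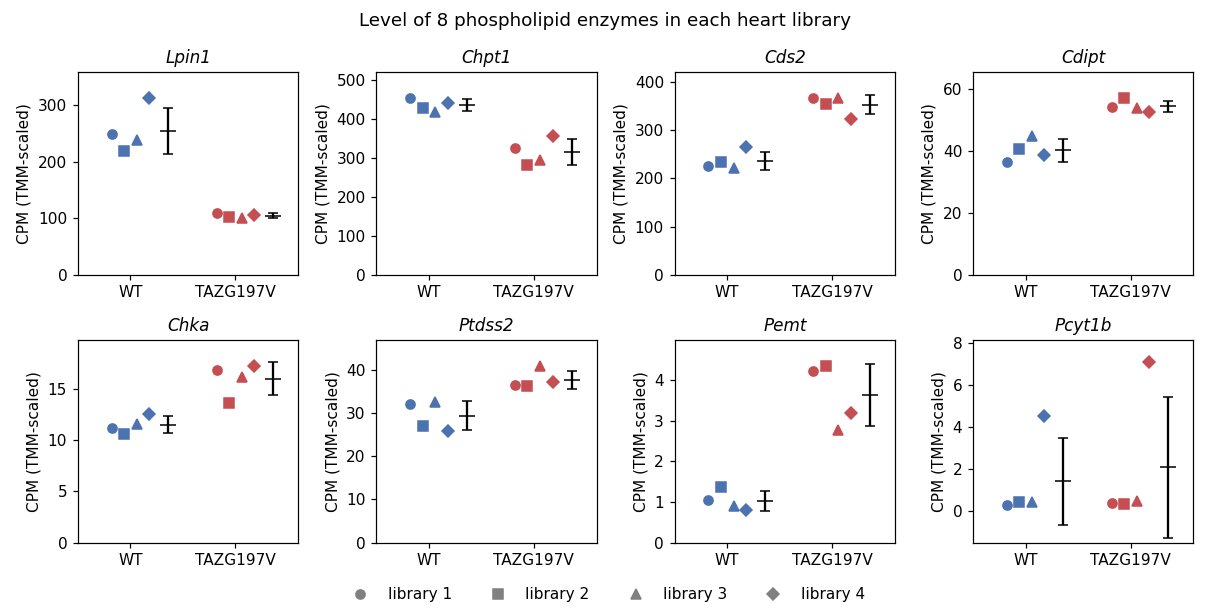
Levels in CPM (TMM-scaled) of 8 members in each library, with WT in blue, TAZG197V in red, marker shapes for libraries 1 to 4 and the mean with 1 SD beside each group. The genotypes are separate for Lpin1, Chpt1, Cds2, Cdipt, Chka, Ptdss2 and Pemt, whereas Pcyt1b was high only in WT 4 and TAZG197V 4 (4.51 and 7.08 CPM).

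Of the 8 members of the CDP-choline and CDP-ethanolamine pathways, 1 was called higher, 2 lower and 5 were not called. The share called was 37.5%, against 33.5% of all genes tested and 41.0% of genes with a mean count of at least 50. Chka and Chpt1, of the first and the last step of phosphatidylcholine synthesis, differed in opposite directions. Chkb and Cept1, the other members at these steps, were not called. Chka (chr19:3851773-3894369), which encodes choline kinase alpha, had 11.2, 10.6, 11.6 and 12.6 CPM in WT and 16.9, 13.7, 16.2 and 17.2 CPM in TAZG197V. The genotypes did not overlap, with a log2 fold change of 0.46 (SE 0.086, adjusted p = 0.00401, edgeR). Chpt1 (chr10:88452745-88504073), which encodes the cholinephosphotransferase that joins CDP-choline to diacylglycerol, had 453.5, 428, 419 and 441 CPM in WT and 326, 281, 295 and 357 CPM in TAZG197V. All TAZG197V libraries were lower and the log2 fold change was -0.47 (SE 0.069, adjusted p = 0.00121, edgeR), -0.53 to -0.40 over the other fits. Cept1, the choline and ethanolamine phosphotransferase, was 22.3 to 24.3 CPM in WT and 21.1 to 23.7 CPM in TAZG197V and was not called (log2 fold change -0.055, adjusted p = 0.551, edgeR). Of its exon bases 24.9% lie in genes of the opposite strand.

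The middle step, the transfer of a cytidylyl group to phosphocholine, is commonly regarded as rate limiting and is encoded by Pcyt1a and Pcyt1b. Pcyt1a had 123 to 129 CPM in WT and 116 to 141.5 CPM in TAZG197V, and its log2 fold change was 0.027 (SE 0.061, adjusted p = 0.750, edgeR). Pcyt1b had 0.304, 0.440, 0.427 and 4.51 CPM in WT and 0.400, 0.324, 0.484 and 7.08 CPM in TAZG197V. Both number 4 libraries were high for it, as they were for the brain markers, and the other 6 lay between 0.304 and 0.484 CPM. Its fitted log2 fold change was -0.033 (adjusted p = 0.929, edgeR), whereas the difference of mean log2 CPM was 0.19, so that no direction is given. Chkb, the second choline kinase, had 45 to 100 counts and a log2 fold change of -0.085 (adjusted p = 0.723, edgeR). It remains uncertain because 57.6% of its exon bases lie in other genes, chiefly a read-through transcript on the same strand. For ethanolamine, Etnk1, ethanolamine kinase 1, had 65.4, 67.7, 66.3 and 77.8 CPM in WT and 58.4, 52.9, 59.3 and 67.2 CPM in TAZG197V. These values overlapped. It was called lower with a log2 fold change of -0.23 (SE 0.058, adjusted p = 0.0150, edgeR), and the adjusted p was 0.0596 without TAZG197V 2, 0.0666 with library totals, 0.0535 with lane as covariate and 0.0835 without surrogate variables. Without WT 4 the log2 fold change was -0.19, under the minimum fold needed for a call. Pcyt2, which makes CDP-ethanolamine, was 35.9 to 43.5 CPM in WT and 38.9 to 42.4 CPM in TAZG197V, with a log2 fold change of 0.0071 (SE 0.056, adjusted p = 0.931, edgeR).

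The largest rise was that of Pemt (chr11:59970614-60046489), which encodes the methyltransferase that turns phosphatidylethanolamine into phosphatidylcholine and is best known from liver. Its counts were 31, 50, 23 and 18 in WT 1 to WT 4 and 116, 161, 86 and 87 in TAZG197V 1 to TAZG197V 4. In CPM these were 1.05, 1.37, 0.893 and 0.804 in WT and 4.21, 4.34, 2.77 and 3.19 in TAZG197V, so that the lowest TAZG197V library was above the highest WT library. The fitted fold change was 3.78, a log2 fold change of 1.92 (SE 0.21, adjusted p = 0.000279, edgeR), and 1.71 to 2.07 over the other fits. The level stayed low even so, at 1.73 ± 0.366 CPM per kilobase in TAZG197V. The 4 liver markers summed to 0.5496 to 1.295 CPM in WT and 0.936 to 2.60 CPM in TAZG197V. Among them albumin (Alb) was at most 0.0447 CPM in any library, and transthyretin (Ttr) was 0.137 to 0.447 CPM in WT and 0.378 to 1.69 CPM in TAZG197V, highest in TAZG197V 4. Their part in the level of Pemt was not tested.

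Ptdss2 (chr7:141122382-141157606), which makes phosphatidylserine from phosphatidylethanolamine, was also higher. Its counts were 946, 986, 837 and 578 in WT 1 to WT 4 and 1002, 1342, 1266 and 1016 in TAZG197V 1 to TAZG197V 4, which gave 25.8 to 32.5 CPM and 36.2 to 40.9 CPM. The genotypes did not overlap and the log2 fold change was 0.36 (SE 0.087, adjusted p = 0.0135, edgeR). Ptdss1, which uses phosphatidylcholine for the same product, was 54.5 to 72.2 CPM in WT and 56.1 to 66.1 CPM in TAZG197V and was not called (log2 fold change -0.039, SE 0.075, adjusted p = 0.707, edgeR). The share of Ptdss2 in the summed level of both per kilobase was 25.7% ± 2.28 in WT and 31.9% ± 2.59 in TAZG197V, with no overlap. Pisd, the mitochondrial decarboxylase that makes phosphatidylethanolamine from phosphatidylserine, was 9.87 to 13.4 CPM in WT and 11.1 to 14.5 CPM in TAZG197V (log2 fold change 0.092, SE 0.11, adjusted p = 0.547, edgeR). It shares 19.1% of its 50-base windows with other genes, pseudogenes among them, and its value is uncertain.

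Lysophospholipid acyltransferases restore the chain that a phospholipase A2 has removed, and of the 8 measured 0 were called higher, 3 lower and 5 were not called by edgeR. The share called was 37.5%, against 33.5% of all genes tested and 41.0% of genes with a mean count of at least 50. Of all genes tested, 18.5% were called higher. None of the 8 acyltransferases was higher at an unadjusted p under 0.05 or with DESeq2. Lpcat3, which prefers polyunsaturated chains, had 36.7, 34.5, 41.5 and 39.6 CPM in WT and 31.4, 33.1, 31.3 and 31.7 CPM in TAZG197V. All TAZG197V libraries were lower and the log2 fold change was -0.28 (SE 0.059, adjusted p = 0.00697, edgeR), with an adjusted p of 0.0514 without TAZG197V 4. Mboat1 had 2.64, 2.09, 2.72 and 2.19 CPM in WT and 1.24, 1.54, 1.81 and 1.72 CPM in TAZG197V. There was no overlap, and the log2 fold change was -0.63 (SE 0.19, adjusted p = 0.0321, edgeR). At 34 to 78 counts its call was lost without WT 1 (adjusted p = 0.0866), WT 3 (0.0911), TAZG197V 1 (0.084) or TAZG197V 2 (0.0923). It was also lost with DESeq2 (0.0753) and with a replicate block in edgeR (0.057). Mboat2 had 10.96, 9.81, 7.22 and 10.7 CPM in WT and 7.41, 6.02, 6.196 and 8.55 CPM in TAZG197V. WT 3 lay among the TAZG197V libraries, and the log2 fold change was -0.45 (SE 0.13, adjusted p = 0.0279, edgeR). That call was lost without WT 1 (adjusted p = 0.0968), TAZG197V 1 (0.0521), TAZG197V 2 (0.112) or TAZG197V 3 (0.0819) without surrogate variables (0.065) and with lane as covariate (0.0811).

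The other 5 acyltransferases were not called. Lpgat1 had 117 to 149.7 CPM in WT and 119.8 to 148.8 CPM in TAZG197V (log2 fold change -0.095, adjusted p = 0.364, edgeR). Mboat7, which acylates lysophosphatidylinositol, had 19.2 to 24.2 and 20.9 to 23.3 CPM (0.086, adjusted p = 0.391). Lpcat1, known for the saturated phosphatidylcholine of lung surfactant, had 11.5 to 13.5 and 9.30 to 12.8 CPM (-0.10, adjusted p = 0.512). Lpcat4 had 1.79 to 2.99 and 1.67 to 3.59 CPM (-0.072, adjusted p = 0.812), with both highest values in the number 4 libraries. Lpcat2 was the 1 member under the mean count of 50, at 48.9, with 1.13 to 2.68 and 1.10 to 1.87 CPM (-0.30, adjusted p = 0.468). In the group's summed level per kilobase Lpgat1 took 47.6% ± 1.52 in WT and 49.9% ± 3.35 in TAZG197V, and Lpcat3 30.7% ± 0.879 and 28.1% ± 1.88, with overlap for each. The share of Mboat7 was 6.66% ± 0.606 and 7.77% ± 0.297 and that of Mboat1 1.74% ± 0.209 and 1.24% ± 0.213, without overlap. Per kilobase of the longest transcript, Mboat7 took 12.8% and 14.85%.

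**Figure D4:**
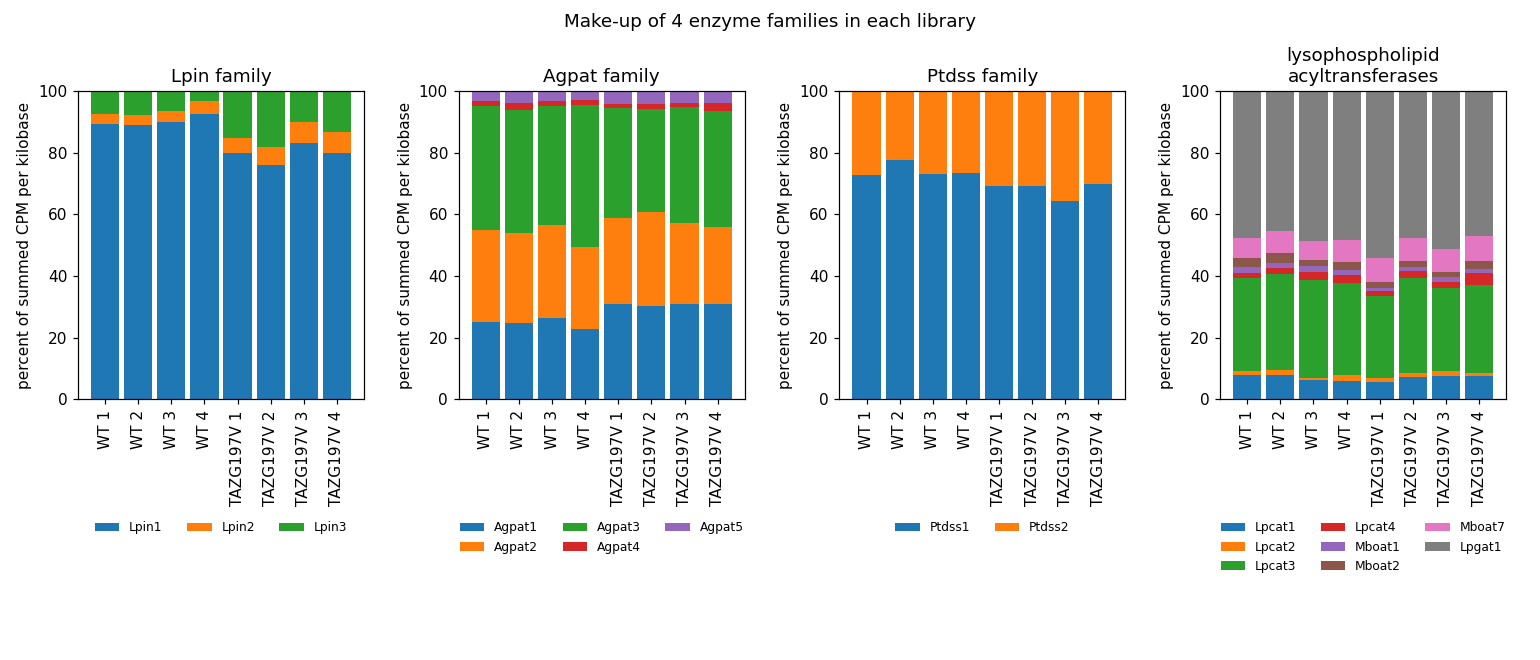
Share of each gene in the summed CPM per kilobase of its family, as a percentage, with 1 bar for each of the 8 libraries. Lpin1 fell from 90.2% of the lipins in WT to 79.8% in TAZG197V, Agpat1 and Ptdss2 took larger parts in every TAZG197V library, and Lpgat1 and Lpcat3 led the lysophospholipid acyltransferases in all libraries.

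Neither phospholipase A2 among the members was called by edgeR or passed with DESeq2, and neither reached an unadjusted p under 0.05. Pla2g6, the calcium-independent enzyme, was 7.54 to 9.71 CPM in WT and 7.45 to 9.23 CPM in TAZG197V (log2 fold change -0.026, SE 0.12, adjusted p = 0.879, edgeR). Pla2g4a, the cytosolic enzyme that releases arachidonic acid, was 2.88 to 6.51 and 3.74 to 5.16 CPM (0.13, SE 0.22, adjusted p = 0.669, edgeR).

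Genes around these enzymes were counted from lists of neighbouring pathways. For comparison, 33.5% of all genes tested and 41.0% of genes with a mean count of at least 50 were called. Of 26 other phospholipases and lysophospholipases, 24 were tested, of which 6 were higher and 6 lower (50.0% called, median log2 fold change 0.043). Pla2g5, a secreted phospholipase A2, fell from 46.8 ± 17.1 to 7.69 ± 4.18 CPM (log2 fold change -2.72, SE 0.15, adjusted p = 1.14e-05, edgeR). Pla2g4e, a cytosolic enzyme, fell by 0.99 on the log2 scale (adjusted p = 0.00360, edgeR), and Lyplal1, a lysophospholipase-like gene, rose by 1.57 from a low level (1.16 ± 0.140 to 3.46 ± 0.414 CPM, adjusted p = 0.000374). Of 6 other glycerolipid acyltransferases 5 were tested and 1 was called (median 0.086). This was Gpat3, a glycerol-3-phosphate acyltransferase of the endoplasmic reticulum, which rose from 13.8 ± 1.73 to 26.8 ± 1.52 CPM (log2 fold change 1.00, SE 0.071, adjusted p = 3.56e-05, edgeR). Of 14 other phosphatidate phosphatases and diacylglycerol kinases, 2 were higher and 2 lower (28.6% called, median -0.13). Plpp2 rose by 1.69 (adjusted p = 0.000151), Plpp1 rose by 0.40 (adjusted p = 0.00747) and Plpp3 fell by 0.50 on the log2 scale (adjusted p = 0.000911, edgeR), all 3 being broad lipid phosphate phosphatases of membranes.

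For choline and ethanolamine supply 9 of 12 genes were tested, with 2 higher and 3 lower (median -0.079). The share called was 55.6%, against 33.5% of all genes tested. Slc44a2, a choline transporter, fell from 86.8 ± 11.2 to 37.98 ± 4.89 CPM (log2 fold change -1.16, SE 0.086, adjusted p = 4.52e-05, edgeR). Selenoi, the ethanolamine phosphotransferase, rose from 26.8 ± 1.49 to 38.3 ± 3.11 CPM (log2 fold change 0.51, adjusted p = 0.00164, edgeR), and Pnpla7, a lysophospholipase, rose by 0.49 (adjusted p = 0.00223). Of 9 cardiolipin genes 4 were higher and 1, Taz, was lower (55.6% called, median 0.069). Tamm41, the mitochondrial CDP-diacylglycerol synthase, rose by 0.46 (adjusted p = 0.0125, and 0.0513 without both number 4 libraries) and Prelid1, which carries phosphatidic acid between the mitochondrial membranes, by 0.58 (adjusted p = 0.00127, edgeR). Of 9 ether phospholipid genes 1 was higher and 1 lower (22.2% called, median 0.10). The higher was Tmem189 (log2 fold change 0.38, adjusted p = 0.00341, edgeR), the desaturase that forms plasmalogens. The lower was Gnpat (-0.39, adjusted p = 0.00122, edgeR), the enzyme that starts ether lipid synthesis.

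Of 13 genes of acyl-CoA synthesis, desaturation and elongation, 2 were higher and 3 lower (median -0.16). The share called was 38.5%, against 33.5% of all genes tested. Fads3, a desaturase, rose from 70.5 ± 12.6 to 172 ± 16.9 CPM (log2 fold change 1.33, SE 0.11, adjusted p = 7.43e-05, edgeR). Acsl6, an acyl-CoA synthetase, fell by 1.25 on the log2 scale (adjusted p = 0.000235), and Scd1, the delta-9 desaturase, by 0.79 (adjusted p = 0.0142) with overlap between the genotypes. Without WT 2, the library with the highest adipocyte markers, the change of Scd1 was -0.57 (adjusted p = 0.0207, edgeR). It was -0.60 (0.0737) without TAZG197V 1, -0.58 (0.0830) without TAZG197V 2 and -1.30 (0.0352) without TAZG197V 4. In all libraries it was -0.94 (0.137) without surrogate variables, -1.01 (0.134) with lane as covariate and -0.90 (0.105) with a replicate block. Of 12 lipid transcription factors and SREBP partners, 2 were higher and 3 lower (41.7% called, median -0.0067). Mlxipl, which encodes the carbohydrate response factor ChREBP, fell from 27.4 ± 3.52 to 9.90 ± 1.26 CPM (log2 fold change -1.48, SE 0.13, adjusted p = 8.97e-05, edgeR). Srebf1, the gene of a master regulator of lipid synthesis, fell by 0.61 (adjusted p = 0.00105; -0.40 without WT 4) and Rxra, the partner of lipid-sensing nuclear receptors, by 0.61 on the log2 scale (adjusted p = 0.000221, edgeR).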

How the data were processed

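RNA was sequenced as 50-base single-end reads from pieces of 8 hearts. According to the study's methods, the authors mapped reads to mm10 with STAR 2.7.3a and counted those overlapping exons of each gene with featureCounts (Subread 2.0.0). The deposited values are raw counts per Ensembl gene. The annotation release, strand setting and treatment of multiply mapped reads were not given in the sources used here, so overlapping genes and close copies are uncertain. The 92 spike-in rows held 0 counts and were left out. Symbols and exon lengths came from GENCODE M21 (GRCm38), which named 55230 gene IDs, and promoters from RefSeq.

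Counts were analysed with edgeR 4.0.16 in R 4.3.3 after filterByExpr and TMM scaling. Genotype was tested in all 8 libraries by the quasi-likelihood F-test, two-sided, with 2 surrogate variables from svaseq (sva 3.50.0, seed 1) and Benjamini-Hochberg adjustment over 15084 genes. The SE is the size of the log2 fold change divided by the square root of F. A gene was called at an adjusted p under 0.05, a fold change beyond 1.15 and a mean scaled count of at least 50. Lane differences used log2 of CPM plus 0.1. Total counts of 23055689 to 36301031 leave counting error small except for members of low level.

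Alternatives were DESeq2 1.42.0, other covariates, scalings, filters and thresholds, and omission of libraries. Replicates of a genotype differed by a chi-square of at least 10.2 per gene, so no library repeated another. The pairs with WT 4 gave 123 to 156 and the other WT pairs 16.6 to 31.1, and those with TAZG197V 4 gave 25.5 to 34.8 and the other TAZG197V pairs 10.2 to 17.6. All 34 members are named, with up to 3 called genes per neighbouring list with the largest change. Marker genes singled out (Alb, Ttr, C1qa and the atrial genes) were chosen after their values were seen. The members, lists and tests were chosen with earlier results of these data known, so no p was adjusted over a list and no list was tested.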

Additional observations from a re-analysis of the deposited data

Results flagged for a closer look

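Within each genotype the highest or lowest of 4 libraries was compared with the others by Dixon's ratio of the gap to the range, over 178 sets of 4 values, and 25 exceeded the critical value at the 95% level. Chance flags about 1 in 20, or 8.9 of 178, and of the 68 sets of member levels 4 were flagged against 3.4 by chance. The ratios of 2 members of a family mirror each other.

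Pcyt1b was high in WT 4 (ratio 0.881) and in TAZG197V 4 (0.887), and its share of the Pcyt1 family likewise (0.961 and 0.983), with the share of Pcyt1a low (0.963 and 0.982). The summed brain markers were high in the same libraries (0.906 and 0.911), and the share of Agpat4 was high in TAZG197V 4 (0.863). The part of these markers in the member values was not tested. Gpam was high in WT 4 (0.838) and Pcyt1a low in WT 2 (0.831). In WT 2 the share of Ptdss1 was high and that of Ptdss2 low (0.888 each), and in TAZG197V 3 the reverse held (0.865 each). The share of Lpcat1 was low in TAZG197V 1 (0.843).

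Among other genes, Gpat3 was high in TAZG197V 3 (0.984), Selenoi high in TAZG197V 1 (0.83), Gnpat low in WT 2 (0.872), Prelid1 high in TAZG197V 2 (0.83) and Mlxipl low in TAZG197V 2 (0.859). Among marker sums, those of adipocytes (0.831) and liver (0.855) were high in TAZG197V 4, those of fibroblasts in WT 2 (0.881) and those of endothelium in WT 3 (0.874).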

How the results depend on the processing

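Over 17 other fits the 15 called members kept their direction in all 255 values, and 43 of these missed the adjusted p of 0.05. Lpin1, Cds2, Cdipt, Chka, Chpt1, Ptdss2 and Pemt were never among the 43. The members called lower, 8 in all, were 4 without surrogate variables and 4 with lane as the covariate, where Agpat3, Lpin2, Etnk1 and Mboat2 were lost in each. Leaving out 1 library gave 5 to 7 members called higher and 4 to 8 lower, with 3675 to 4816 genes called in all. At a fold change of at least 1.5, 1 member was higher and 2 lower among 1843 genes, and at an adjusted p under 0.01 these were 4 and 4 among 3174 genes. Same-numbered libraries correlated at 0.332, 0.0736, 0.269 and 0.405 in their deviations from the genotype means and others at -0.445 to 0.334, and WT 3, TAZG197V 1 and TAZG197V 2 did not correlate best with their own number. The numbers were therefore not taken as pairs. With a replicate block 6 members were higher and 5 lower, and 4272 genes were called. Those lost with the block were Agpat3 (adjusted p = 0.0611), Agpat5 (0.0537), Lpin2 (0.061) and Mboat1 (0.057), and of the neighbouring genes Scd1 (log2 fold change -0.90, adjusted p = 0.105). The causes were not tested. For the 21 genes named from neighbouring lists, whose alternatives were added after seeing the data, 351 of 357 values kept direction and side of the threshold and 6, of Scd1 and Tamm41, missed it.

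Of 323 values for the 19 members not called, 37 had the opposite sign, all without passing the threshold. The log2 fold change of Pcyt1b was 0.56 without surrogate variables, 0.0048 with 1, 0.34 with lane, 0.26 with the replicate block, 0.027 with library totals and 0.028 without both number 4 libraries. With library totals Cept1 was 0.015, Ptdss1 0.031 and Pla2g6 0.043. Pcyt2 was -0.0039 with DESeq2 and -0.0037 with its size factors, Lpcat4 0.0019 with lane, and without both number 4 libraries Lpcat2 was 0.078 and Lpgat1 0.039. With 1 library left out, the lowest and highest values were -0.25 and 0.79 for Pcyt1b, -0.032 and 0.078 for Pcyt2, -0.17 and 0.017 for Ptdss1, -0.21 and 0.15 for Lpcat4, -0.095 and 0.067 for Pla2g6, -0.014 and 0.39 for Lpin3, -0.0034 and 0.27 for Pla2g4a, -0.026 and 0.088 for Gpam, -0.47 and 0.0080 for Agpat4, -0.013 and 0.10 for Pcyt1a, -0.23 and 0.016 for Chkb, -0.56 and 0.012 for Lpcat2, and -0.17 and 0.022 for Lpgat1. The other 6 uncalled members kept their sign with 1 library left out but moved by over 1.5 times in at least 1 such fit, with lowest and highest values of -0.21 without TAZG197V 2 and -0.069 without TAZG197V 4 for Agpat2, -0.57 without TAZG197V 3 and -0.24 without WT 4 for Cds1, -0.086 without WT 4 and -0.022 without TAZG197V 1 for Cept1, -0.17 without TAZG197V 3 and -0.017 without TAZG197V 1 for Lpcat1, 0.044 without WT 1 and 0.163 without WT 4 for Mboat7, and 0.030 without TAZG197V 2 and 0.157 without TAZG197V 3 for Pisd. Of 48 family shares 23 moved by over 1 SD per kilobase of the longest transcript. The largest SEs were those of Lpcat2 (0.30), Pcyt1b (0.25) and Lpin3 (0.23).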
